A study of Mus musculus with 6 samples.

Results

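The 40 genes described here belong to the unfolded protein response of the endoplasmic reticulum (ER) and to the integrated stress response that overlaps with it. They were listed by name, as known sensors, transcription factors and targets of these pathways. The rule itself uses no measured value, but the list was made with earlier results of these data known. All 40 were on the array, with 95 of its 45101 probe sets (short sets of probes that each report 1 transcript signal), counting probe sets whose platform annotation names only that gene. The genes form 4 branches: 17 genes of the ATF4 branch (38 probe sets), 4 genes for the stress sensors and XBP1 (15 probe sets), 15 ER chaperones and folding enzymes (31 probe sets) and 4 genes of ER-associated degradation (11 probe sets).

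When unfolded proteins accumulate in the ER, they activate 3 membrane sensors. PERK (Eif2ak3) phosphorylates the translation factor eIF2, which lowers protein synthesis while favouring translation of ATF4, a factor for genes of amino acid supply, redox control and cell death. Other kinases reach the same step from amino acid shortage, haem shortage or mitochondrial damage, so that ATF4 targets also answer to stresses outside the ER. IRE1 (Ern1) splices the mRNA of Xbp1, and ATF6 is cut to release a transcription factor. XBP1 and ATF6 raise chaperones, disulfide isomerases and the machinery that exports misfolded proteins for degradation. In the heart these pathways are known from ischaemia, pressure overload and mitochondrial disease. Much of their control is by translation, splicing and cleavage, which these signals do not measure.

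Whole hearts of 3 DNMTs-Tg mice (replicates 1, 5 and 6) and 3 wild-type mice (replicates 1, 4 and 6), all 8 weeks old, were each measured on 1 array. DNMTs-Tg mice express DNMT3A2, a short form of a de novo DNA methyltransferase, and its partner DNMT3L in many somatic tissues. Per the labels they came from a female carrying Cre under the promoter of the germ cell gene Ddx4, on the FVB strain, and a male with the floxed allele. Whether the wild-type mice carry Cre or the floxed allele alone, and whether they are littermates, is not given in the sources used here. The design text describes slow growth and early death of the DNMTs-Tg mice. The study asked which genes the 2 proteins methylate and silence in the heart. DNA methylation was not analysed here.

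Some arrays stood apart or went against their labels. On the first principal component (64.0% of the variance) DNMTs-Tg replicate 1 scored -53.0 and the other DNMTs-Tg arrays -21.1 and -4.34, against 24.6 to 27.8 in wild-type. Dnmt3l, which checks the transgene, had log2 signals of 12.19 to 12.38 in DNMTs-Tg and 5.17 to 5.48 in wild-type hearts. The labels give 5 females and 1 male (wild-type replicate 6), but Xist, the RNA of the inactive X chromosome, was bright only in wild-type replicate 4 (10.10, against 4.52 to 4.96 on the other 5 arrays), and the Y-linked Eif2s3y was dim only there (3.32, against 9.41 to 9.52). The 3 DNMTs-Tg arrays and wild-type replicate 1 thus went against their sex labels. RNA integrity was read from the log2 signal of 3' over 5' control probes. For Gapdh it was 0.66 ± 0.12 (SD, n = 3) on DNMTs-Tg against 0.43 ± 0.06 on wild-type arrays (2-sided exact permutation p = 0.1, which 3 against 3 cannot go below). For Actb it was 1.12 ± 0.25 against 1.15 ± 0.09 (SD, n = 3, exact permutation p = 0.8). The 10 cardiomyocyte markers were bright on all arrays, with mean log2 levels of 13.90 to 14.15.

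Short promoter stretches show the elements through which the branches are known to act. The ER stress response element, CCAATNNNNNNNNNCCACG, is bound by NF-Y at its first bases and by ATF6 or XBP1 at its last. It was searched on both strands in the 250 bases before each RefSeq start (build GRCm38.p6), together with TGATGNAAT, a C/EBP-ATF element bound by ATF4, and TGACGTGG, an XBP1 element. Sequences were at hand for 35 of the 40 genes (37 promoters). The ER stress element was found in 8 of the 37 (21.6%), against 0.113% of all 32851 promoters, and its 8 genes were Calr, Canx, Creld2, Dnajc3, Hsp90b1, Hspa5, Pdia6 and Syvn1. The C/EBP-ATF element was found in 3 (8.11%, against 0.816% of all), those of Aars, Fgf21 and Nupr1, and the XBP1 element in 0 (0.563% of all). A match is a description of letters and not proof of a bound site. Members of these pathways are partly known through such elements, so the shares are no result of the mice.

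The 4 ER stress element stretches printed first belong to the main ER chaperone Hspa5, to Calr and Creld2, which had the highest and the lowest difference between genotypes among the 8 genes, and to Syvn1 of the degradation branch. They are written 5′ to 3′ in the direction of the element, with the matched bases in capitals. The Hspa5 stretch lies at chr2:34772005-34772063 on the plus strand, with its match 47 to 65 bases before the start. The Calr stretch lies at chr8:84847055-84847113 (plus strand, 144 to 162 bases before the start, opposite to the gene), the Creld2 stretch at chr15:88819500-88819558 (minus strand, 108 to 126 bases, opposite to the gene) and the Syvn1 stretch at chr19:6046512-6046570 (plus strand, 26 to 44 bases).
Hspa5: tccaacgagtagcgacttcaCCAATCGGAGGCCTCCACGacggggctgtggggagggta
Calr: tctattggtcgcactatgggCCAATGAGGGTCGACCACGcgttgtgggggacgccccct
Creld2: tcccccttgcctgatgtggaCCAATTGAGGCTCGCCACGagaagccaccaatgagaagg
Syvn1: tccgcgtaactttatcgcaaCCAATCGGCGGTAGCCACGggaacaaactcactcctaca

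The C/EBP-ATF stretches are those of the hormone gene Fgf21 (chr7:45615602-45615650, plus strand, 132 to 140 bases before the start), the stress protein gene Nupr1 (chr7:126625553-126625601, plus strand, 103 to 111 bases) and the alanyl-tRNA synthetase gene Aars (chr8:111033709-111033757, minus strand, 105 to 113 bases). All 3 matches lie opposite to the gene and share the same 9 capital bases.
Fgf21: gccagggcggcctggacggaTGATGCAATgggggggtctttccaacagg
Nupr1: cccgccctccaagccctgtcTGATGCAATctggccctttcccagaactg
Aars: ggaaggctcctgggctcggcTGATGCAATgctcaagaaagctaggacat

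In DNMTs-Tg hearts the stress response genes stood slightly above wild-type, by less than most single genes could be told apart from the spread between mice. Of the 40 genes, 39 passed the filter on dim signals and were tested, and 0 changed past an adjusted p of 0.05 (limma with Benjamini-Hochberg adjustment over all genes), where 5.39% of all 13634 genes did. The cystine transporter gene Slc7a11 was the 1 gene not tested. Its brighter probe set had log2 signals of 3.39 to 3.73, below the 40th percentile of every array. Of the 39, 33 lay above wild-type (84.6%, against 50.8% of all genes), with a median log2 difference of 0.17, or 1.13-fold, against 0.0055 over all genes. With 1 array left out, 26 members lay above wild-type when wild-type replicate 6 was dropped and 34 when replicate 4 was, the lowest and highest numbers. Without DNMTs-Tg replicate 1 it was 32, with a median of 0.14.

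The sizes were ordinary for these arrays. At an unadjusted p under 0.05, 6 members were higher (15.4% of the 39) and 2 lower (5.13%), beside 12.9% and 13.1% of all genes. The 3 DNMTs-Tg arrays all lay above the 3 wild-type arrays for 10 members (25.6%, against 17.3% of all genes) and all below for 2 (5.13%, against 17.6%). Fgf21, which passed the filter only through its DNMTs-Tg arrays, is in both higher counts; among the other 38 members they were 5 and 9. A difference of at least 2-fold was seen for 1 member, Ppp1r15a (2.56%), and for 4.25% of all genes. The median size of the difference, whatever its sign, was 0.23 in members and 0.20 over all genes. The counts of calls also depended on single arrays. Without DNMTs-Tg replicate 1, 4 members passed (10.3%, against 7.83% of all genes). These were P4hb and Calr, higher, and Cebpb and Vldlr, lower. Without DNMTs-Tg replicate 6, 4 members passed (10.3%, against 11.8% of all genes). These were P4hb, Calr, Ddit3 and Ppp1r15a, all higher. Without any 1 of the other 4 arrays 0 members passed, where 0.90% to 1.48% of all genes did.

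**Figure D1:**
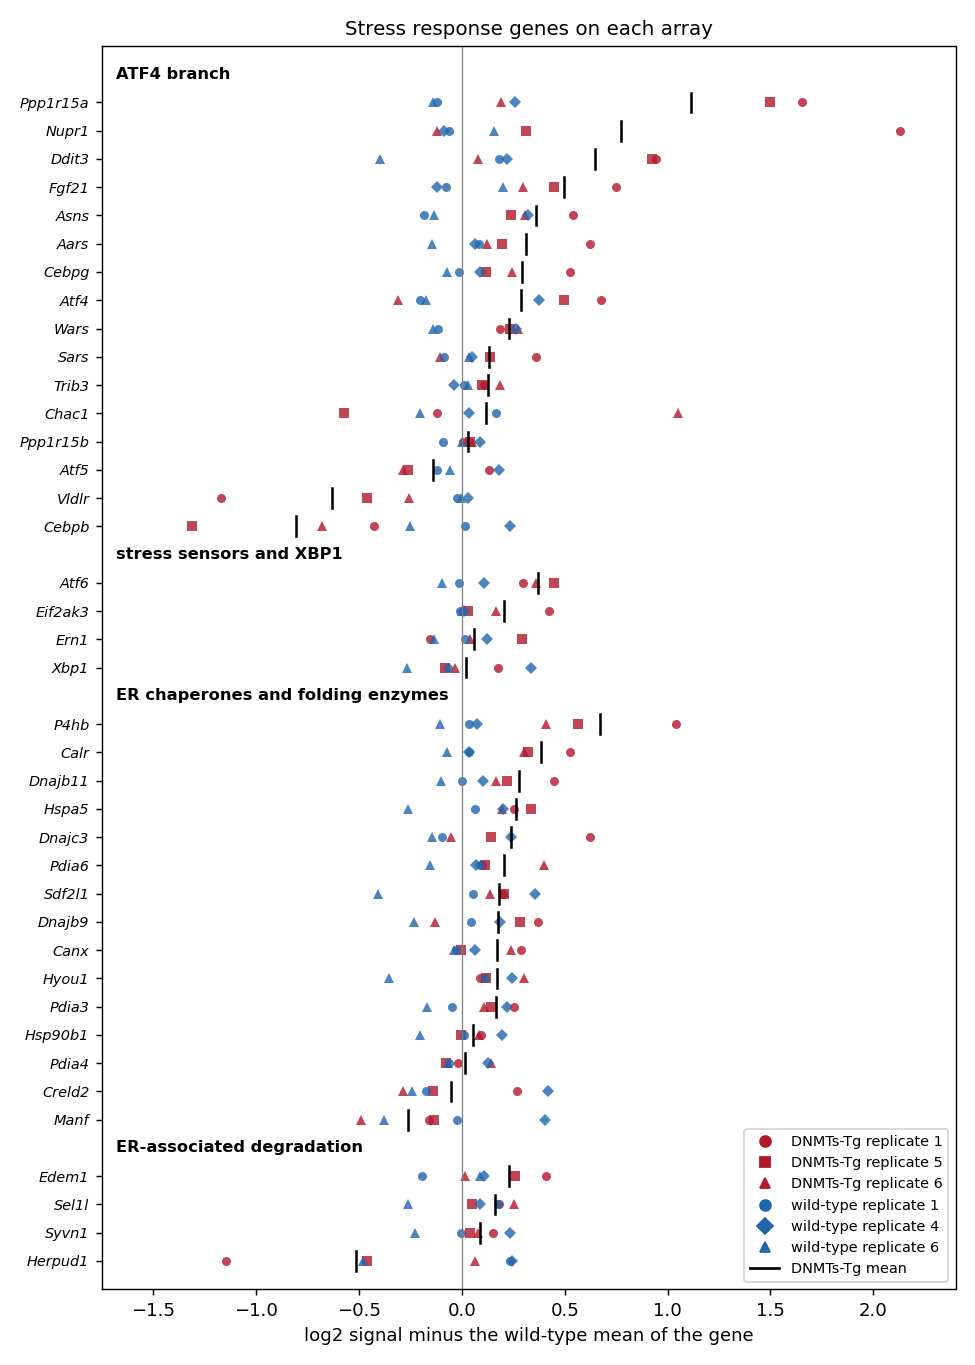
Log2 signal of each of the 39 tested genes on each array, relative to the wild-type mean of the gene (x axis), by branch; red symbols are DNMTs-Tg and blue wild-type mice, and black bars are DNMTs-Tg means (n = 3). Most bars lie right of 0, but the red and blue symbols overlap for all but 12 genes, and the blue diamond of wild-type replicate 4 often reaches the DNMTs-Tg mean.

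The wild-type mice differed among themselves in these genes. Wild-type replicate 4 was the highest of the 3 wild-type arrays for 32 of 39 members (82.1%, against 32.0% of all genes), and wild-type replicate 6 the lowest for 28 (71.8%, against 37.4%). In the chaperone branch replicate 4 lay above replicate 6 for 15 of 15 genes, with a median log2 gap of 0.39, while the median gap over all genes was -0.0008. For 19 of the 39 members replicate 4 lay above the DNMTs-Tg mean. Replicate 4 is the array with Xist and without Y-linked RNA. Replicates 1 and 6 both carry Y-linked RNA, as do the 3 DNMTs-Tg arrays. The chaperone mean, relative to the wild-type mean, was 0.00 in wild-type replicate 1, 0.20 in replicate 4 and -0.20 in replicate 6. The part of sex in these gaps was not tested.

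The transcription factors of the ATF4 branch did not move as 1 group. Atf4, the factor that the branch is named for, had log2 signals of 10.81, 10.64 and 9.82 in DNMTs-Tg replicates 1, 5 and 6 and 9.94, 10.51 and 9.96 in wild-type replicates 1, 4 and 6. The groups overlapped, with DNMTs-Tg replicate 6 the lowest of all 6 arrays (difference 0.29 ± 0.28, SE, adjusted p = 0.549). A dimmer Atf4 probe set differed by 0.98 (adjusted p over all probe sets 0.183), with DNMTs-Tg replicate 6 (8.48) below wild-type replicate 4 (8.61). The platform suffix of that probe set marks probes that may also match other transcripts. The same holds for the probe sets used for 9 members (Aars, Canx, Hyou1, Nupr1, Sars, Syvn1, Vldlr, Wars and Xbp1).

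Ddit3, which encodes the cell death factor CHOP, had 9.09, 9.07 and 8.22 in DNMTs-Tg and 8.33, 8.37 and 7.75 in wild-type hearts. DNMTs-Tg replicates 1 and 5 lay above every wild-type array and replicate 6 did not (0.65 ± 0.28, adjusted p = 0.194). Its dimmer probe set differed by -0.10. Without replicate 6 the difference was 0.93 and passed (adjusted p = 0.0385). Ppp1r15a, the stress-induced phosphatase subunit that reverses eIF2 phosphorylation, followed the same arrays, with 9.79, 9.64 and 8.33 against 8.02, 8.40 and 8.00. Its difference of 1.11 ± 0.37 did not pass (adjusted p = 0.123), and without DNMTs-Tg replicate 6 it was 1.58 (adjusted p = 0.00499). Its constitutive counterpart Ppp1r15b differed by 0.03, with 8.62 to 8.66 in DNMTs-Tg and 8.52 to 8.70 in wild-type hearts.

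Cebpb, a leucine zipper factor of stress, inflammation and fat cell differentiation, was the member with the smallest p in this branch and lay on the lower side. Its signals were 10.82, 9.93 and 10.56 in DNMTs-Tg and 11.26, 11.48 and 10.99 in wild-type hearts, so that the groups did not overlap. The difference was -0.81 ± 0.24 (adjusted p = 0.0968), and its other probe set differed by -0.83. Without DNMTs-Tg replicate 1 it was -0.997 and passed (adjusted p = 0.0379). Cebpg, a partner of ATF4 in binding DNA, had DNMTs-Tg signals all above wild-type in its brightest probe set (0.29 ± 0.13, adjusted p = 0.216). Its dimmer probe sets differed by 0.26 and 0.006, with overlapping groups. Atf5, a related factor with a role in mitochondrial stress, differed by -0.14, with overlapping groups.

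Nupr1, a stress-induced chromatin protein, showed how far 1 heart could carry a mean. DNMTs-Tg replicate 1 had 9.37, whereas replicates 5 and 6 had 7.55 and 7.12 and the wild-type arrays 7.15 to 7.39. Its difference was 0.78 ± 0.53 (adjusted p = 0.388), and 0.10 without replicate 1. Chac1, an enzyme that degrades glutathione, was high in another heart: it had 8.27 in DNMTs-Tg replicate 6, 7.09 and 6.64 in replicates 1 and 5, and 7.01 to 7.38 in wild-type hearts. Trib3, a pseudokinase that restrains ATF4, had groups that did not overlap, at 6.49 to 6.58 against 6.35 to 6.42, but the difference was 0.13 (adjusted p = 0.451).

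Among the metabolic targets of the branch, all 4 measured genes lay above wild-type and 0 passed. Asns, the asparagine synthetase and a classical ATF4 target, had 6.82, 6.52 and 6.59 in DNMTs-Tg and 6.10, 6.60 and 6.15 in wild-type hearts (0.36 ± 0.17, adjusted p = 0.225). Wild-type replicate 4 lay within the DNMTs-Tg range, and the dimmer Asns probe set differed by 0.76 with overlap. The tRNA synthetase genes Aars, Wars and Sars, which charge tRNA with alanine, tryptophan and serine, differed by 0.31, 0.23 and 0.13 (adjusted p = 0.251, 0.324 and 0.585), with groups apart for Aars alone.

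Fgf21, a hormone secreted by liver and stressed muscle under ATF4 control, had 5.17, 4.87 and 4.73 in DNMTs-Tg and 4.35, 4.31 and 4.62 in wild-type hearts. Every wild-type value, and no DNMTs-Tg value, was under its array's 40th percentile. Taken against that percentile the signal was at least 1.15-fold higher in DNMTs-Tg hearts. The measured difference was 0.50 (adjusted p = 0.105), but the gene entered the test only through the arrays where it was high, so that this p supports nothing. Vldlr, the very low density lipoprotein receptor that takes up triglyceride-rich particles in the heart and is raised through ATF4 in other tissues, lay lower. Its brightest probe set had 11.64, 12.36 and 12.56 in DNMTs-Tg and 12.79, 12.84 and 12.81 in wild-type hearts (-0.63 ± 0.22, adjusted p = 0.133). All 6 Vldlr probe sets were lower, by 0.62 to 1.09 on the log2 scale, with DNMTs-Tg replicate 1 lowest in each. Vldlr was described after its values were seen. For the brightest probe set the difference was -0.36 without DNMTs-Tg replicate 1 (adjusted p = 0.0377). Without DNMTs-Tg replicate 6 it was -0.82 and lay at the threshold (adjusted p = 0.0501).

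**Figure D2:**
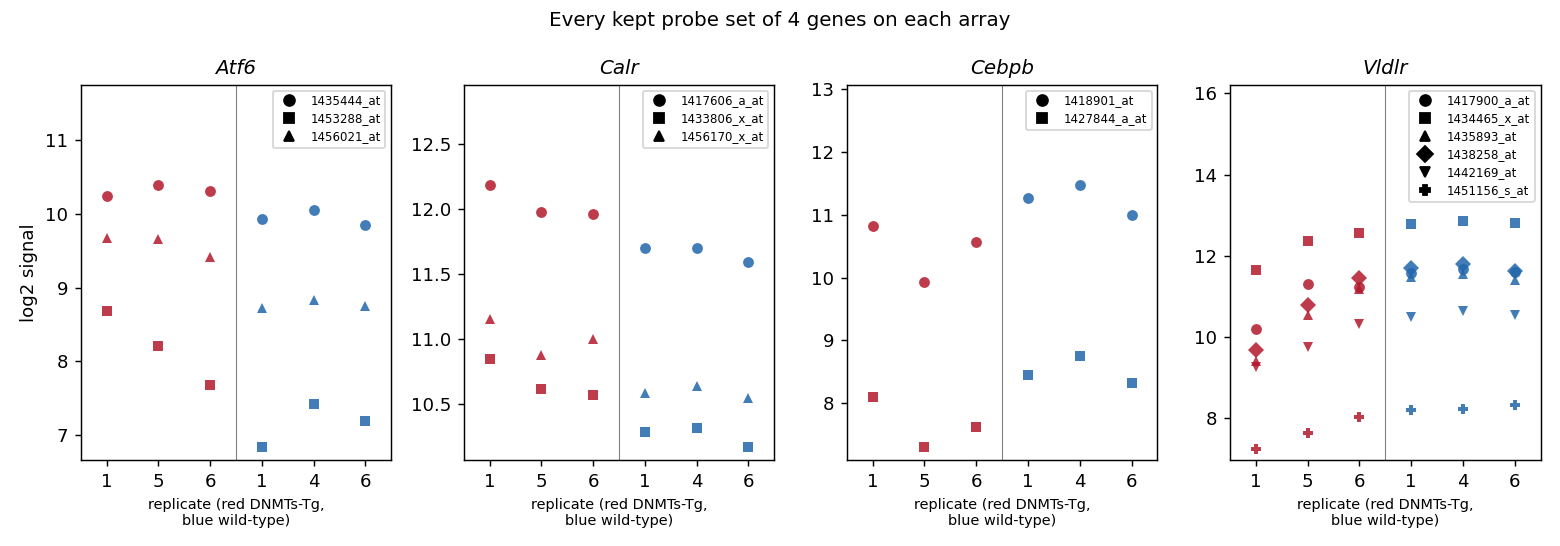
Log2 signal (y axis) of every kept probe set of Atf6, Calr, Cebpb and Vldlr on each array (x axis, replicate numbers; red DNMTs-Tg, blue wild-type, 1 symbol per probe set). Each of the probe sets shown keeps its red and blue symbols apart, higher in DNMTs-Tg for Atf6 and Calr and lower for Cebpb and Vldlr. These genes do not stand for the members. Of all 85 kept member probe sets, 18 lay apart on the higher side and 8 on the lower side. The share over all kept probe sets is not given here.

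Of the stress sensors, Atf6 stood highest relative to wild-type, and its probe sets differed in size. The brightest, used for the gene, had 10.25, 10.40 and 10.31 in DNMTs-Tg and 9.94, 10.06 and 9.85 in wild-type hearts (0.37 ± 0.10, adjusted p = 0.0789). A second had 9.67, 9.66 and 9.42 against 8.72, 8.83 and 8.76. Its difference of 0.82 was the 1 member value past the threshold of 0.05 in the unfiltered test of all probe sets (adjusted p = 0.0176), where 2.11% of 45037 probe sets passed. The third differed by 1.04 (adjusted p = 0.0891), from 6.83 to 7.43 in wild-type to 7.68 to 8.68 in DNMTs-Tg hearts. All 3 kept the genotypes apart. With the mean of the 3 probe sets the gene differed by 0.74 and passed (adjusted p = 0.0315). The call of the second probe set was kept without DNMTs-Tg replicate 1 (0.77) or replicate 6 (0.90). It was lost without DNMTs-Tg replicate 5 (0.78, adjusted p = 0.0882) and without wild-type replicate 1 (0.79, adjusted p = 0.108), replicate 4 (0.84, adjusted p = 0.0803) or replicate 6 (0.81, adjusted p = 0.0866). Where the 3 probe sets lie along the transcript is not known here, and the part of the 3' to 5' signal difference given above was not tested.

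The other sensors differed less. Eif2ak3 had 7.85, 7.46 and 7.59 in DNMTs-Tg and 7.42, 7.44 and 7.43 in wild-type hearts (0.21 ± 0.13, adjusted p = 0.349), with replicate 5 just above the wild-type range. A dimmer Eif2ak3 probe set that passed the filter differed by -0.16, with overlapping groups. Ern1 had 8.43, 8.88 and 8.63 against 8.60, 8.71 and 8.45, with overlapping groups (0.06 ± 0.14, adjusted p = 0.829). Xbp1, the substrate of IRE1, had 11.11, 10.85 and 10.90 against 10.87, 11.28 and 10.67 (0.02 ± 0.17, adjusted p = 0.952). Wild-type replicate 4 was the brightest Xbp1 array, and the 4 Xbp1 probe sets differed by -0.21 to 0.02. Spliced and unspliced Xbp1 mRNA were not told apart.

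In the chaperone branch 13 of 15 genes lay above wild-type, with a median of 0.17, and 0 passed. The median was 0.08 without wild-type replicate 6 and 0.28 without wild-type replicate 4. P4hb and Calr had the smallest p among all members. P4hb encodes a disulfide isomerase that is also a subunit of the collagen prolyl hydroxylase, and had 12.07, 11.60 and 11.44 in DNMTs-Tg and 11.07, 11.10 and 10.92 in wild-type hearts. The groups lay apart, with DNMTs-Tg replicate 1 farthest (0.67 ± 0.17, 1.59-fold, adjusted p = 0.0650). Calr, the calcium-binding lectin chaperone calreticulin, which is also needed in the developing heart, had 12.19, 11.98 and 11.97 against 11.70, 11.70 and 11.59 (0.38 ± 0.10, 1.30-fold, adjusted p = 0.0663). Its 3 probe sets differed by 0.38 to 0.42. Both genes passed without DNMTs-Tg replicate 1 (P4hb 0.49, adjusted p = 0.0287, and Calr 0.31, adjusted p = 0.0478) and without DNMTs-Tg replicate 6 (adjusted p = 0.0291 and 0.0482), and neither passed without any 1 of the other arrays (adjusted p up to 0.199 for P4hb and 0.210 for Calr).

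Cells that secrete collagen need these enzymes, so fibroblast and other markers are given beside them. Of 10 fibroblast markers 0 passed and 8 lay above wild-type, and their mean stood at 1.30, 0.30 and 0.22 in DNMTs-Tg replicates 1, 5 and 6 and -0.19, -0.07 and 0.26 in wild-type replicates 1, 4 and 6, relative to the wild-type mean. Mean marker levels ranged from 10.48 to 11.55 in DNMTs-Tg and 10.06 to 10.52 in wild-type hearts. Of 10 macrophage markers 0 passed, and their mean stood at 1.53, 0.02 and 0.05 in DNMTs-Tg and -0.15 to 0.08 in wild-type hearts, at levels of 8.18 to 9.68 and 8.01 to 8.23. Of 7 B and plasma cell markers on the array, 3 (Cd79a, Jchain and Pou2af1) were too dim to be tested and 0 of the other 4 passed, at mean levels of 5.52 to 5.74 and 5.60 to 5.68. Of 8 endothelial markers 5 lay above wild-type and 1 rose, the clotting factor gene Vwf (1.39, adjusted p = 0.0177), with mean levels of 9.09 to 9.30 and 9.04 to 9.07. Of 5 smooth muscle markers 0 passed and 4 lay below wild-type, at levels of 8.79 to 9.25 and 9.06 to 9.43. Of the 10 cardiomyocyte markers 0 passed and 8 lay below wild-type. For 6 of them all DNMTs-Tg arrays lay below all wild-type arrays, as for 17.6% of all genes. For 2, Mybpc3 and Ttn, all lay above, as for 17.3% of all genes. In whole hearts, more cells of a type and more RNA per cell cannot be told apart, and the part of these cells in the chaperone values was not tested. Without DNMTs-Tg replicate 1 the medians of the 4 branches were 0.15, 0.13, 0.12 and 0.10, against 0.26, 0.13, 0.17 and 0.13 with it, in the order ATF4, sensors, chaperones and degradation.

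Hspa5, the HSP70 of the ER (BiP) that holds the 3 sensors inactive, had 12.90, 12.98 and 12.84 in DNMTs-Tg and 12.71, 12.85 and 12.38 in wild-type hearts. DNMTs-Tg replicate 6 lay just below wild-type replicate 4 (0.26 ± 0.13, adjusted p = 0.245), and the other 2 Hspa5 probe sets differed by 0.09 and -0.0005. Its co-chaperone Dnajb11 had 9.47, 9.24 and 9.18 against 9.02, 9.12 and 8.92, with groups apart (0.28 ± 0.12, adjusted p = 0.192). The ER HSP90 gene Hsp90b1 differed by 0.06, the nucleotide exchange factor gene Hyou1 by 0.17, the co-chaperone genes Dnajb9, Dnajc3 and Sdf2l1 by 0.17, 0.24 and 0.18, and the lectin chaperone gene Canx by 0.17. All of these had overlapping groups. Of the disulfide isomerase genes, Pdia6 had groups apart (0.20, adjusted p = 0.348), and Pdia3 and Pdia4 differed by 0.17 and 0.02 with overlap. The secreted ER stress factors Manf and Creld2 differed by -0.26 (adjusted p = 0.463) and -0.05 (adjusted p = 0.897), with overlapping groups. Both were brightest in wild-type replicate 4, and without that array their differences were -0.06 and 0.16.

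The 8 genes with the ER stress element shown above ranged from -0.05 for Creld2 to 0.38 for Calr. Within the chaperone branch, the 7 genes with a match had a median of 0.20. The other 8 had 0.17, but they include Hyou1 and Manf, for which no sequence was at hand to search. P4hb, with the highest value, had no match in its 250 bases. The 3 genes with the C/EBP-ATF element were Aars (0.31), Nupr1 (0.78, and 0.10 without DNMTs-Tg replicate 1) and Fgf21, for which only the bound of at least 1.15-fold holds.

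**Figure D3:**
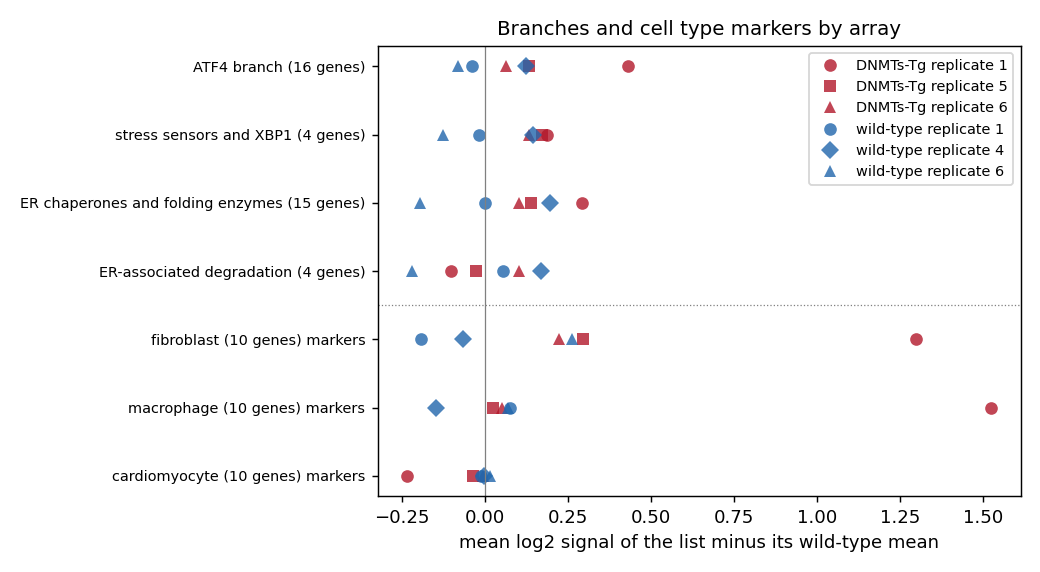
Mean log2 signal of each branch and of 3 cell type marker lists on each array, relative to the wild-type mean (x axis; red DNMTs-Tg, blue wild-type). In the chaperone branch wild-type replicate 4 (0.20) lies above DNMTs-Tg replicates 5 and 6 (0.14 and 0.10), and the fibroblast and macrophage markers of DNMTs-Tg replicate 1 lie far to the right (1.30 and 1.53).

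In ER-associated degradation 3 of 4 genes lay above wild-type and 0 passed. The median of 0.13 was 0.0040 without wild-type replicate 6 and 0.21 without wild-type replicate 4. Herpud1, a membrane protein of the export complex and a sensitive ER stress gene, lay lower, with 10.44, 11.12 and 11.65 in DNMTs-Tg and 11.82, 11.83 and 11.10 in wild-type hearts (-0.51 ± 0.33, adjusted p = 0.356). The groups overlapped, since wild-type replicate 6 lay just below DNMTs-Tg replicate 5 and well below DNMTs-Tg replicate 6. The other Herpud1 probe set differed by -0.33, with DNMTs-Tg replicate 6 (10.93) the highest of all 6 arrays. Edem1, a lectin that picks glycoproteins for degradation, had 8.38, 8.23 and 7.99 against 7.78, 8.08 and 8.06 (0.23 ± 0.15, adjusted p = 0.359). Sel1l, the scaffold of the export ligase, had 10.25, 10.12 and 10.32 against 10.24, 10.15 and 9.81 (0.16 ± 0.14, adjusted p = 0.488). The ligase gene Syvn1 differed by 0.09 (adjusted p = 0.710).

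Several genes were measured by probe sets that disagreed. Of 27 members with more than 1 kept probe set, 18 had differences of 1 sign and 9 did not. Of the 46 kept probe sets not used for their gene, 25 differed further in the same direction as the one used, 9 less far and 12 in the opposite direction. The dimmer Edem1 probe set differed by 0.76, the 4 of Sel1l by -0.17 to 0.61, the 4 of Dnajc3 by -0.14 to 0.55, that of Trib3 by 0.54 and that of Hsp90b1 by -0.35. Only the Atf6 probe set described above passed among the 95.

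Of 149 other tested genes of the same pathways, taken from 7 lists, 7 passed (4.70%, close to the 5.39% of all genes), and whether this share differs from the 0 of 39 members was not tested. The list of other ATF4 targets was made with earlier results of these data known, so its shares are a description only. Of 34 tested ATF4 targets outside the 40 genes, 4 rose and 0 fell (11.8%, against 5.39% of all genes). At an unadjusted p under 0.05, 10 were higher (29.4%, against 12.9%) and 2 lower (5.88%, against 13.1%), and 13 of the 34 lay below wild-type. Their differences ran from -1.28 to 1.89 with a median of 0.13, which was 0.07 without DNMTs-Tg replicate 1 and 0.25 without DNMTs-Tg replicate 6. Slc7a5, the large neutral amino acid transporter, rose by 1.02 ± 0.16 (adjusted p = 0.0181), from 6.39, 6.39 and 6.40 in wild-type to 7.72, 7.15 and 7.36 in DNMTs-Tg hearts. Psat1, an aminotransferase of serine synthesis, rose by 0.92 ± 0.15 (adjusted p = 0.0209), from 5.91, 5.80 and 5.96 to 7.10, 6.63 and 6.71. Mthfd2, a mitochondrial enzyme of folate metabolism, rose by 1.00 ± 0.20 (adjusted p = 0.0341), from 6.22, 6.85 and 6.24 to 7.62, 7.29 and 7.42, and its other probe set by 1.78.

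For all 3 genes, named because they were called, every DNMTs-Tg array lay above every wild-type array, as for 17.3% of all genes. Eif4ebp1, an inhibitor of cap-dependent translation, rose by 0.63 ± 0.13 (adjusted p = 0.0417), but 1 of its 3 probe sets differed by -0.04, and the one used has a suffix for probes that may match other transcripts. These calls needed particular arrays. Slc7a5 was kept without any 1 DNMTs-Tg array and lost without wild-type replicate 1, 4 or 6 (adjusted p = 0.0912, 0.0820 and 0.0750). Mthfd2 was lost without DNMTs-Tg replicate 5 or wild-type replicate 1 or 6 (adjusted p = 0.0959, 0.142 and 0.129). Psat1 and Eif4ebp1 were kept only without DNMTs-Tg replicate 1 or 6. The differences themselves ranged from 0.86 to 1.15 for Slc7a5 and from 0.78 to 1.02 for Psat1. Whether these calls differ from the values of Atf4 or Asns was not tested.

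**Figure D4:**
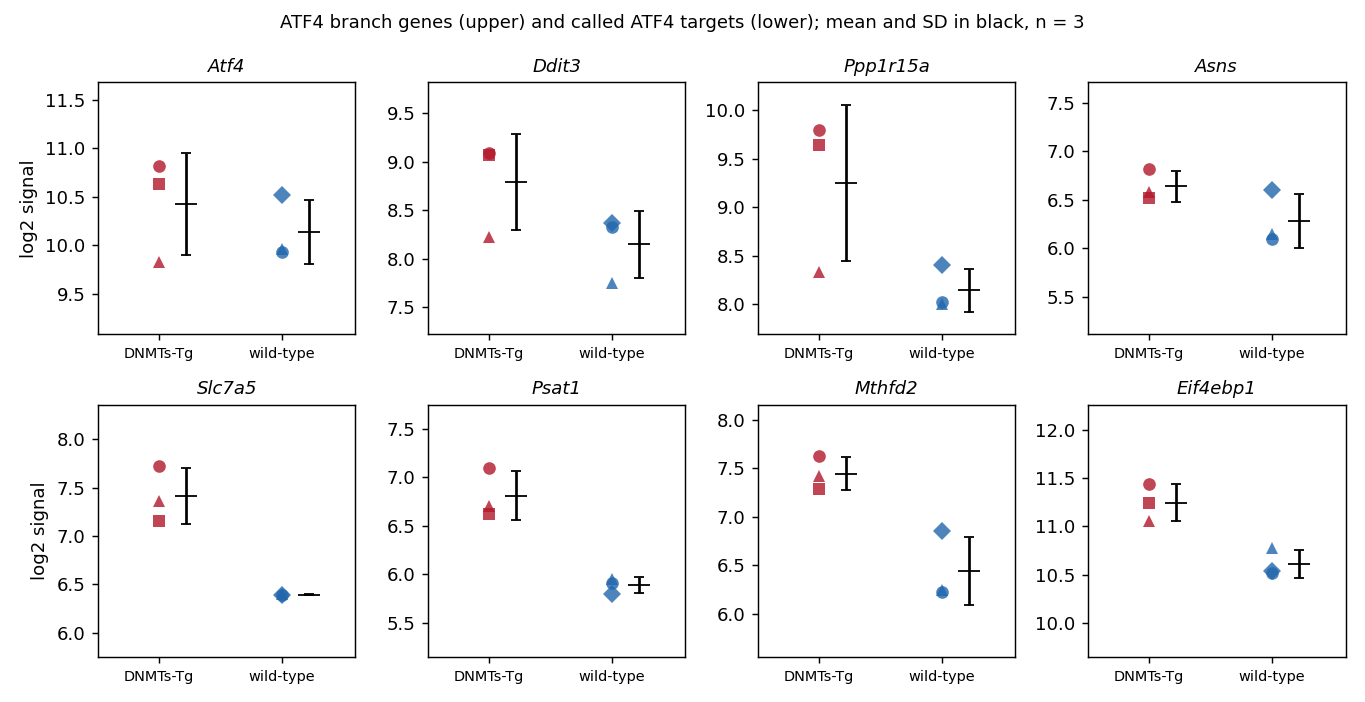
Log2 signal (y axis) of 4 genes of the ATF4 branch (upper row) and the 4 called ATF4 targets (lower row) in each mouse; circles are replicate 1, squares replicate 5, triangles replicate 6 and diamonds replicate 4, with mean and SD in black (n = 3). Genotypes overlap in the upper row, and in the lower row each DNMTs-Tg mouse lies above each wild-type mouse. The lower genes are shown because they were called, so their separation is no further result. Of the 34 tested targets, 11 lay apart on the higher side (32.4%, against 17.3% of all genes) and 3 on the lower side. Of the 16 tested genes of the ATF4 branch, 4 lay apart on the higher side and 2 on the lower side, none of them shown here.

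In the remaining 6 lists 0 genes rose and 3 fell. Prkcsh, the beta subunit of the glucosidase that trims glycans for the lectin chaperones, was the 1 of 22 other folding genes (median 0.12) that fell (-0.72 ± 0.10, adjusted p = 0.0142), from 8.98, 8.83 and 8.88 to 8.25, 8.11 and 8.18. It was kept without DNMTs-Tg replicate 1 or 6 and lost without any 1 of the other arrays (adjusted p up to 0.0878). Of 12 mitochondrial chaperones and proteases, 10 lay below wild-type (median -0.15) and 2 fell. Hspe1, the co-chaperone of mitochondrial HSP60, fell by 0.73 on the log2 scale (adjusted p = 0.0428), and the protease subunit gene Clpx fell by 0.51 on the log2 scale (adjusted p = 0.0473), although its dimmer probe set differed by 0.30. Hspe1 was kept only without DNMTs-Tg replicate 1 or 6, and Clpx only without DNMTs-Tg replicate 1.

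The other 4 lists held no called gene and had medians near those of the members. They were the eIF2 kinases and eIF2 machinery (13 genes, median 0.15), secretory targets of XBP1 (32 genes, 0.11), other degradation genes (22 genes, 0.12) and other ER stress regulators (15 genes, 0.13). Their smallest adjusted p-values were 0.10 for Eif2s2, an eIF2 subunit (0.44), 0.0860 for Rpn2, a subunit of the glycan transferase (0.41), 0.0736 for the ligase gene Rnf139 (-0.45) and 0.178 for Creb3, a membrane-bound factor related to ATF6 (0.41). Next in these lists were Dele1, which relays mitochondrial stress to eIF2 (-0.59, adjusted p = 0.161), the translocon gene Ssr3 (0.28, adjusted p = 0.0943), the segregase gene Vcp (0.28, adjusted p = 0.0855) and Wfs1 (0.26, adjusted p = 0.219). Without DNMTs-Tg replicate 1 the median of the XBP1 secretory list was -0.0045, that of the eIF2 list 0.05, that of the other folding genes 0.0043 and that of the other degradation genes 0.06.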

How the data were processed

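The deposited values, 1 for each probe set of an Affymetrix GeneChip on each array, were read as log2 signals, since they lie between 2.06 and 14.74 with array medians of 5.28 to 5.33. How the authors corrected and normalized them is not given in the sources used here. The values were analysed as deposited. Symbols came from the platform annotation (34945 probe sets with 1 symbol, 932 with several), updated through gene identifiers to RefSeq, GRCm38.p6, which also gave the promoter sequences.

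A probe set passed when 3 or more arrays exceeded their own 40th percentile (27377 passed). The brightest passing probe set, by its mean, stood for a gene. DNMTs-Tg minus wild-type differences were tested on both sides by limma 3.58.1 under R 4.3.3 (lmFit, eBayes with a trend) over 13634 genes, with Benjamini-Hochberg adjustment at 0.05. Every probe set was also tested without the filter. Each error after ± is an SE of the difference unless marked SD. The steps were tested on simulated data. The number of arrays limits the precision.

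Values per array are given for the 3 genes with the smallest p in each branch and for Atf4, Ddit3, Xbp1, Ern1, Atf6, Eif2ak3 and Hspa5, and for others chosen after their values were seen. From each other list, up to 6 genes past the threshold, or the 2 with the smallest p, are named. Members and lists were chosen with earlier results of these data known. The p-values set each difference against the spread between mice within the groups and treat the mice as independent. Nothing in the labels says whether mice shared a litter, so this independence could not be checked. The label numbers 1 and 6 occur in both groups.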

Additional observations from a re-analysis of the deposited data

How the results depend on the processing

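Over the 13634 genes the count of calls was 735. It was 4822 with array weights (a fit that did not fully converge), 1655 at an adjusted p under 0.1 and 1 with the label number as a replicate block, and it ranged from 123 to 1604 with 1 array left out. The replicate block rests on 2 shared numbers, whose arrays did not deviate together (correlations of -0.05 and -0.08), so the numbers were not taken as pairs. It left 0 members called and moved the median of the sensors to 0.27. The count of members called was 0 as reported. It was 1 (Atf6) when kept probe sets were averaged or when each was tested on its own. It was 10 with array weights (where 35.4% of all genes were called) and 4 at an adjusted p under 0.1 (12.1% of all). With 1 array left out it ranged from 0 to 4, while 0.90% to 11.8% of all genes were called. The count of member probe sets called was 1 under quantile normalization and among kept probe sets. It ranged from 0 to 10 with 1 array left out. These alternatives were chosen after seeing the data. The 10 were called without DNMTs-Tg replicate 6, where 11.8% of all genes were called. The share of all probe sets called in that fit is not given here. With 1 array left out the median of the eIF2 list ranged from 0.0476 (without DNMTs-Tg replicate 1) to 0.222 (without DNMTs-Tg replicate 6). Medians of the other lists and branches moved by less than the spread between arrays (the larger SD within a group) in every setting run. That spread was wider than some medians, so this does not show that they were stable. For the secretory targets of XBP1 it was 0.20, against a median of 0.11. This median was -0.0045 without DNMTs-Tg replicate 1 and -0.019 with array weights. For ER-associated degradation the spread was 0.20, against a median of 0.13, which was 0.0040 without wild-type replicate 6. Quantile normalization turned the sign of 3 members (Pdia4, Ppp1r15b and Xbp1), all within 0.03 of 0 as reported, and leaving out wild-type replicate 6 turned 7. Probe sets near or below the 40th percentile (Slc7a11, Fgf21) have no known relation to background.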
